A study of Mus musculus with 3 samples.

Results

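Costimulatory and checkpoint receptors are the surface proteins that raise or lower the response of a T cell once its antigen receptor is engaged. The 10 receptor genes described here were chosen by gene symbol: Cd28, Icos, Ctla4, Pdcd1 and Btla of the CD28 family and its close relatives, Cd27, Tnfrsf4 and Tnfrsf18 of the TNF receptor family, and the activation receptors Cd69 and Cd7. Each had 1 probe set with a single gene symbol, so all 10 were measured, among 10191 genes in all. Expression was compared between 3 sorted populations of mouse CD8+ T cells with 1 Affymetrix array each: CXCR3+ innate, CXCR3- innate and naive cells. Spleens and lymph nodes of C57BL/6 mice with a GFP reporter of CXCR3 (named CIBER mice in the extraction notes) were the source of all cells. The mice were kept in pathogen-free conditions, and the labels name no treatment. Cells were stained for surface markers, CD44 and CD8 among them, before sorting. RNA was taken from about 3 to 5 mice, and the labels give neither the gates nor the age of the mice. Innate is the submitters' word for the populations other than naive cells.

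CD28 family receptors are immunoglobulin-type proteins that bind ligands of the B7 family on antigen-presenting cells. CD28 and ICOS add an activating signal, whereas CTLA-4 takes up the same ligands as CD28 without passing on that signal and PD-1 and BTLA recruit phosphatases. CD27, OX40 (Tnfrsf4) and GITR (Tnfrsf18) signal through TRAF adaptors to NF-kB and favour survival, and several receptors of this kind appear or increase only after activation. CD69 is an early activation antigen that also removes the lymph node exit receptor S1P1 from the cell surface, and CD7 is a small immunoglobulin-type protein of T and natural killer cells.

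None of the 10 receptor genes differed by 2-fold between any pair of arrays. Cd7, Cd69 and Ctla4 were the genes with a range over 1.4-fold. Cd7 and Cd69 read lowest in CXCR3- innate cells, and Ctla4 read highest there. The remaining 7 genes lay within 0.11 of each other on the log2 scale on all arrays, and Pdcd1, Btla, Tnfrsf4 and Tnfrsf18 had the same deposited value on every array. With 1 array per population there is no spread between replicates and no test, and higher and lower refer only to these arrays. In bulk samples, fewer cells that express a gene and less RNA per cell cannot be told apart.

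A gene counted as past the size rule when its log2 values differed by at least 1 (2-fold) and the higher one reached the median level of all genes on its array, which was 7.65 in naive cells and 7.63 in each innate population. In CXCR3+ innate minus naive 0 of 10 receptor genes passed, against 0.236% of all genes. In CXCR3- innate minus naive the count was 0 of 10 against 0.245%, and in CXCR3+ innate minus CXCR3- innate it was 0 of 10 against 0.157%. With so few genes passing anywhere, a count of 0 among 10 is near what the background share gives. At 1.5-fold with the same level filter, 1 receptor gene passed, Cd7 between the innate populations, against 1.08% of all genes. None passed at 1.5-fold in CXCR3+ innate minus naive, against 1.2% of all genes, or in CXCR3- innate minus naive, against 1.7%.

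**Figure D1:**
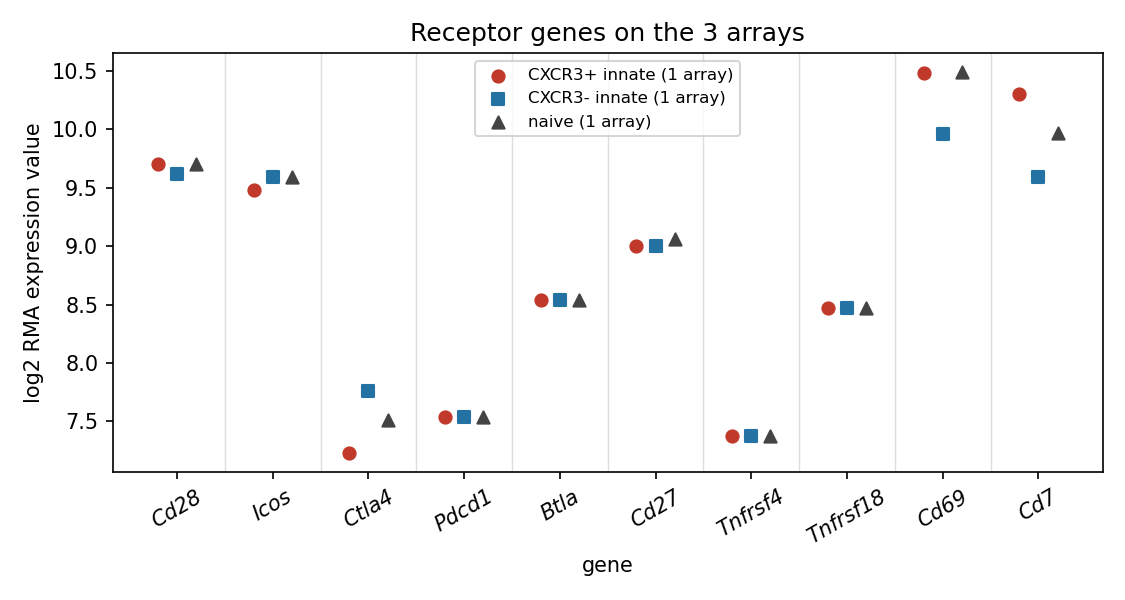
Log2 RMA expression value (vertical axis) of the 10 receptor genes (horizontal axis) in the 3 CD8+ T cell populations, 1 point per array. Cd7 and Cd69 have their lowest point and Ctla4 its highest point in CXCR3- innate cells, and the 3 points of Pdcd1, Btla, Tnfrsf4 and Tnfrsf18 are level; heights of different genes are not comparable.

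Among the CD28 family, Ctla4 was the gene that separated the arrays. It read 7.23 on the CXCR3+ innate array, 7.76 on the CXCR3- innate array and 7.51 on the naive array. The CXCR3- innate value was thus the highest and the only one at or above the median of its array, and the CXCR3+ innate value was the lowest. That lowest value lay near 7, where the table's filter limits values. Between the innate populations the difference in Ctla4 was -0.53, or 1.44-fold lower in CXCR3+ innate cells. Among all genes 0.255% had a difference as low or lower, and 1.69% differed by as much in either direction. From naive cells Ctla4 differed by -0.28 in CXCR3+ innate and by 0.24 in CXCR3- innate cells. In either direction, 8.96% and 15.6% of all genes differed from naive by as much. Both Ctla4 differences from naive share the naive array.

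The table of RefSeq promoters, of mouse build GRCm38.p6, held Ctla4, Pdcd1, Btla, Cd27, Tnfrsf4 and Tnfrsf18, and had no entry for Cd28, Icos, Cd69 or Cd7. The stretch before the Ctla4 start is shown because Ctla4 is the one gene of the 6 whose values differed by over 0.1 between arrays. It covers 250 bases at chr1:60908775-60909024 on the plus strand, written 5′ to 3′, and capitals mark the matches described after it.
Ctla4: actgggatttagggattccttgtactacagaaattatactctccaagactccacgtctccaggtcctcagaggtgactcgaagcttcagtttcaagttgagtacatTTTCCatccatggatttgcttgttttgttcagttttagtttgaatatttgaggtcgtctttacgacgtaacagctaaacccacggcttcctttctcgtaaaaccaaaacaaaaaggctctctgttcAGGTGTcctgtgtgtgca
The first stretch in capitals is the NFAT core GGAAA on the opposite strand, 144 to 140 bases before the start. The other is the T-box motif AGGTGT, 18 to 13 bases before the start. Both strands were searched for these motifs, for the AP-1 motif TGANTCA, the TCF/LEF motif ATCAAAG and the NF-kB consensus. In windows of the same length the share of 32851 promoters with a match was 55.6% for NFAT, 11.8% for T-box, 6.75% for AP-1, 7.25% for NF-kB and 3.21% for TCF/LEF. Among the genes with equal values on all arrays, Pdcd1 and Tnfrsf18 each held 2 NFAT cores and Tnfrsf4 held 1, Tnfrsf18 also held 1 T-box motif, and Btla held no match to any of the 5 motifs. Cd27 held 1 NFAT core. Matches thus occur in Ctla4 and in genes with equal deposited values, but equal values do not measure equal expression. A match shows letters in a sequence, not a bound factor.

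Cd28 and Icos, which encode the activating receptors of the family and lie on either side of Ctla4 as consecutive protein-coding genes in the RefSeq table, did not share its order. Cd28 read 9.70 on the CXCR3+ innate array, 9.62 on the CXCR3- innate array and 9.70 on the naive array. The CXCR3- innate array was lowest, by 0.08 from each of the others, and 37.9% of all genes differed from naive by as much in CXCR3- innate cells. After quantile normalization, CXCR3- innate cells were 0.10 above naive cells in Cd28 instead. Icos read 9.48 in CXCR3+ innate cells and 9.59 in both other populations, with the same deposited value in the latter. Its difference between the innate populations was -0.11, which 22.0% of all genes matched or exceeded in size. Cd28 and Icos were above the median of all genes on every array.

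Pdcd1, which encodes the inhibitory receptor PD-1 of exhausted and recently activated T cells, read 7.54 on each array, below the median of all genes. Btla, whose product binds the TNF receptor family member HVEM, read 8.54 on each. Equal values were common in this table, since 34.6% of all genes had the same value on the 3 arrays, compared with 4 of 10 receptor genes. An equal value is therefore no measurement that expression was the same.

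Of the TNF receptor family genes, Tnfrsf4 read 7.38 and its neighbour Tnfrsf18 read 8.47 on every array. Tnfrsf4 was below the median of all genes throughout and Tnfrsf18 above it. Cd27, whose product is present on naive and memory T cells and binds CD70, read 9.00 in both innate populations and 9.06 in naive cells. Both differences from naive were -0.06, a size that 37.4% of all genes reached in CXCR3+ innate and 42.2% in CXCR3- innate cells. After quantile normalization they were 0.04 and 0.09, so the sign turned, and it also turned in CXCR3- innate cells after cyclic loess.

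The activation receptors differed more. Cd69 read 10.48 on the CXCR3+ innate array, 9.96 on the CXCR3- innate array and 10.49 on the naive array. CXCR3+ innate and naive cells were thus level, and CXCR3- innate cells were 1.44-fold below either. Among all genes, 2.56% had a CXCR3- innate minus naive difference as low as the -0.53 of Cd69, and 1.46% had one as high as its 0.52 between the innate populations. After quantile normalization the Cd69 difference between CXCR3- innate and naive cells was -0.32, and that between the innate populations 0.37. Naive cells, which in the textbook view carry little CD69 protein, did not have the lowest Cd69 value.

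Cd7 had the widest range of the 10, at 0.71. It read 10.30 on the CXCR3+ innate array, 9.59 on the CXCR3- innate array and 9.97 on the naive array, so the naive array lay between the innate ones. Cd7 was 1.63-fold higher in CXCR3+ than in CXCR3- innate cells, and 0.618% of all genes had a difference as high. From naive cells it differed by 0.33 in CXCR3+ innate cells, which 1.94% of genes reached or passed. In CXCR3- innate cells it differed from naive by -0.38, or -0.19 after quantile normalization. In either direction, 6.66% of genes differed by as much as deposited in CXCR3+ innate cells and 6.75% in CXCR3- innate cells. By range over the 3 arrays Cd7 stood at rank 181 of 10191 genes, Cd69 at rank 450 and Ctla4 at rank 460.

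**Figure D2:**
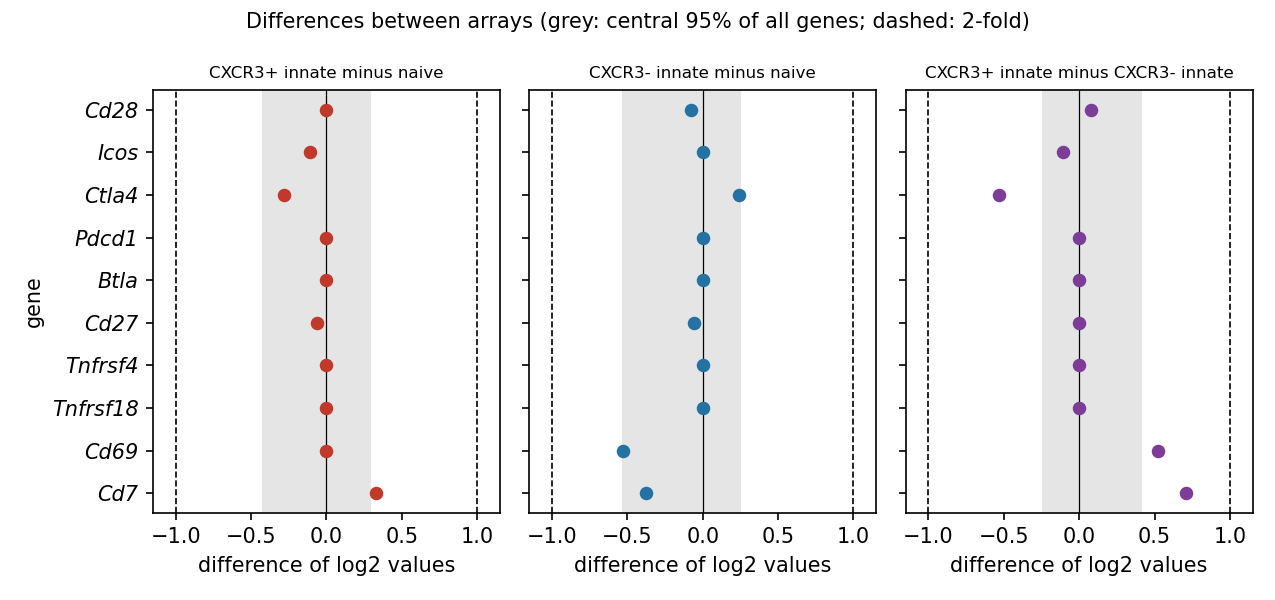
Difference of log2 values (horizontal axes) of each receptor gene (vertical axis) in the 3 comparisons, 1 point per gene. Grey bands span the central 95% of all 10191 genes (-0.24 to 0.41 in the right panel) and dashed lines mark 2-fold; Cd7 at 0.71, Cd69 at 0.52 and Ctla4 at -0.53 lie outside the band between the innate populations, and no point reaches a dashed line.

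Most of the receptor genes lay inside the central range of all genes. That range, which held the middle 95% of genes, was -0.42 to 0.29 for CXCR3+ innate minus naive, where Cd7 alone lay outside it. It was -0.53 to 0.25 for CXCR3- innate minus naive, where Ctla4 and Cd69 lay close to its ends. Between the innate populations it was -0.24 to 0.41, with Cd7, Cd69 and Ctla4 outside. The median difference of the 10 genes was 0.00 in each of the 3 comparisons at 2 decimals, as was that of all genes.

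Other genes were also lowest on the CXCR3- innate array. It was strictly the lowest array for 20.7% of all genes and for 30.9% of the 5096 genes with a mean at or above the median of gene means, and for 3 of 10 receptor genes, Cd28, Cd69 and Cd7. It was strictly the highest for 12.4% of all genes and, among the receptor genes, for Ctla4. Of the 5 measured T cell and CD8 identity genes, 3 had clearly lower values there than on the CXCR3+ innate array: relative to naive cells Cd3g differed by -0.93, Cd8a by -0.66 and Cd3d by -0.52 in CXCR3- innate cells, and by -0.38, -0.29 and 0.01 in CXCR3+ innate cells. Cd8b1 differed from naive by -0.26 in CXCR3- and -0.24 in CXCR3+ innate cells, and Cd3e, lowest in CXCR3+ innate cells, by -0.30 and -0.36. Their part in the Cd69 and Cd7 differences was not tested.

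The genes whose pattern was most like that of Cd7 were found by the distance between log2 values centred on each gene's mean, over the 3 arrays and 5409 other genes whose highest value reached the median level of its array. The nearest were the small nucleolar RNA gene Snord47, at a distance of 0.0296, the ribosomal protein gene Rpl32 at 0.0406, Cst7, which encodes the protease inhibitor cystatin F of cytotoxic cells, at 0.0412, the small nucleolar RNA gene Snord15a at 0.0434 and the ribosomal protein gene Rpsa at 0.0456. Their differences between the innate populations ran from 0.64 for Snord15a and Rpsa to 0.72 for Cst7. A likeness over 3 arrays is a description, and 12 genes lay within 0.1 of Cd7.

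**Figure D3:**
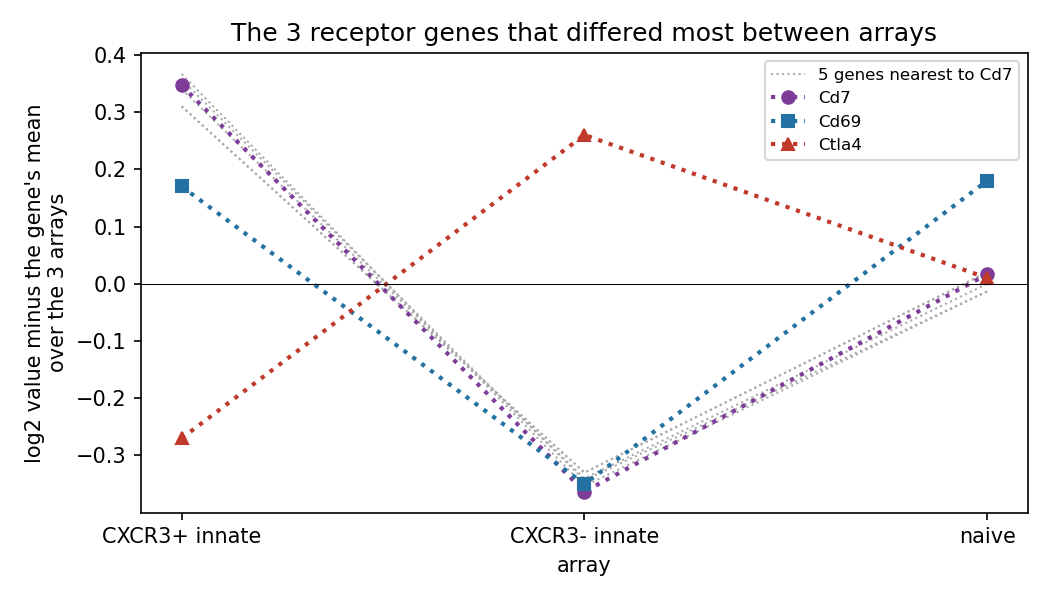
Log2 value minus the gene's own mean over the 3 arrays (vertical axis) for Cd7, Cd69 and Ctla4, and in grey for the 5 genes nearest to Cd7, on each array (horizontal axis; dotted lines only link the points of a gene). Cd7, Cd69 and the grey genes are lowest in CXCR3- innate cells, where Ctla4 is highest.

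Identity and other cell types were checked with marker genes. The T cell and CD8 genes Cd3e, Cd8a and Cd8b1 were well above the array medians, at 11.45, 10.14 and 11.31 in CXCR3+ innate, 11.51, 9.77 and 11.29 in CXCR3- innate and 11.81, 10.43 and 11.54 in naive cells. Cd44 read 8.30, 7.88 and 7.24 and Cxcr3 read 7.97, 7.82 and 7.57 in the same order. Cd44 passed the 2-fold rule in CXCR3+ innate minus naive, at 1.06 or 2.08-fold. With an offset of 16 on the linear scale its difference was 0.98, just under the rule. The Cxcr3 value was highest in the cells sorted as CXCR3+, but only 0.15 above that in CXCR3- innate cells. This difference lay inside the central 95% of all genes, -0.24 to 0.41, and CXCR3- innate cells were 0.25 above naive. Cxcr3 RNA thus barely separated the innate arrays. Because Ctla4, Icos, Tnfrsf4 and Tnfrsf18 are also abundant in regulatory CD4+ T cells, 9 markers of CD4+ and regulatory T cells were examined, of which 4 had values. Foxp3 read 7.30, 7.36 and 7.30, while Ikzf4 at 7.70 and Lrrc32 at 7.08 were equal on all arrays, and Cd4 and Il2ra have no value here. Summed on the linear scale, these 3 came to 507 in CXCR3- innate cells and to 500 in each of the other populations. The fourth, Il7r, is also a gene of naive and memory CD8+ T cells and read 11.25, 10.85 and 11.21, which brings the sums to 2940, 2350 and 2860. The part of such cells in the Ctla4 values was not tested. Of 14 B cell markers 1 had a value, H2-Ab1, at 134, 148 and 132 on the linear scale, and the 3 of 8 myeloid markers summed to 525, 550 and 537. The 3 of 8 natural killer markers, led by Klrd1, which CD8+ T cells also express, summed to 1080, 926 and 1150. Without Klrd1 the others, Ncr1 and Fcer1g, summed to 281, 299 and 268. Fcer1g read 7.07, 6.98 and 6.93, near 7, where the table's filter limits values.

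The ligands came next. Of 19 listed ligand and counter-receptor genes 8 had values, and none passed the 2-fold rule in any comparison. Lgals1, encoding galectin-1, a lectin that binds CD7 among other glycoproteins, read 9.17 on the CXCR3+ innate array, 8.38 on the CXCR3- innate array and 8.37 on the naive array. It was thus 1.73-fold above both other populations and the only ligand past 1.5-fold. Cd86, a ligand of CD28 and CTLA-4, read 6.84, 7.12 and 7.07 in the same order, and Pdcd1lg2, which encodes the PD-1 ligand PD-L2, read 7.21, 7.20 and 7.06. Both lay near 7, the level that every probe set of this table reaches on at least 1 array. Tnfsf8, the CD30 ligand, and Vtcn1, an inhibitory B7 relative, differed by 0.11 or less in size in every comparison. Cd274, the PD-L1 gene, Tnfrsf14, which encodes HVEM, and Cd276 were equal on all arrays.

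Of 24 other listed members of the TNF receptor and CD28 families, 11 had values. None passed at 2-fold or 1.5-fold. At 1.5-fold 1.2% of all genes passed in CXCR3+ innate minus naive and 1.7% in CXCR3- innate minus naive. Between the innate populations 1.08% did, so no gene among 11 is near what these shares give. Tnfrsf1b, which encodes TNF receptor 2, a costimulatory receptor of T cells, read 9.36 on the CXCR3+ innate array, 8.93 on the CXCR3- innate array and 9.05 on the naive array, in the same order of arrays as Cd7, although the CXCR3- innate value was 0.04 above naive after quantile normalization. Tnfrsf10b, the death receptor for TRAIL, read 7.93, 7.96 and 8.16. The survival receptor gene Tnfrsf13c differed by 0.01 or less, and the other 8, Fas among them, were equal on all arrays. Such equal values, found in 34.6% of all genes, do not measure that expression was the same.

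Of 21 other inhibitory and tuning receptor genes listed, 12 had values. Their differences ran from -0.87 to 1.04 in CXCR3+ innate minus naive, from -0.45 to 0.55 in CXCR3- innate minus naive and from -0.43 to 0.72 between the innate populations. Lilrb4a, encoding an inhibitory immunoglobulin-like receptor, passed the 2-fold rule in CXCR3+ innate minus naive, at 8.48 against 7.44, or 2.06-fold, with 7.76 in CXCR3- innate cells. It has a closely related copy, Lilr4b, and a further probe set that carries both symbols was not used. With an offset of 16 on the linear scale the Lilrb4a difference was 0.98, just under the rule. Tigit, an inhibitory receptor, was 1.56-fold above naive in CXCR3+ innate and 1.47-fold above naive in CXCR3- innate cells, with values of 7.87, 7.79 and 7.23. Pecam1, an adhesion receptor with inhibitory motifs, read 7.80, 8.23 and 8.68, or 1.83-fold lower in CXCR3+ innate than in naive cells. Cd96, which shares a ligand with TIGIT, read 9.47, 9.53 and 9.91. In each of these the CXCR3- innate value lay between those of the other arrays, unlike in Ctla4, Cd69 and Cd7. Ceacam1 read 6.79, 7.13 and 6.84, so only its CXCR3- innate value reached 7, near which the table's filter limits values. Cd5, which dampens antigen receptor signals, differed by 0.09 between the innate populations.

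Signalling genes downstream of these receptors were mostly at or below their naive values as deposited. Of 49 listed, 41 had values, and none passed the 2-fold rule. In CXCR3- innate minus naive, 28 were below 0, 1 was above and 12 were equal, with a median of -0.08, compared with 36.3% of all genes below 0, 21.6% above and a median of 0.00. This split depended on scaling: after quantile normalization 20 were below 0 and 21 above, and the median was 0.01. Brighter genes leaned the same way as deposited. The naive array was strictly the highest for 28.1% of all genes, and for 41.7% of genes with a mean at or above the median of gene means. A share of genes matched for level was not computed. In CXCR3+ innate minus naive 24 were below 0 and 7 above, and the median was -0.03. Of all genes 34.2% were below 0 in that comparison and 20.7% above. After quantile normalization 21 signalling genes were below 0 and 20 above, with a median of 0.00. Between the innate populations 19 were above 0 and 7 below, with a median of 0.00. The shares of all genes were 28.7% above and 22.3% below. Quantile normalization gave 14 signalling genes above and 27 below.

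Grap2, the adaptor GADS that binds CD28, read 9.51 on the CXCR3+ innate array, 9.82 on the CXCR3- innate array and 10.30 on the naive array, which is 1.73-fold lower in CXCR3+ innate than in naive cells. Vav1, the exchange factor that CD28 engages, read 8.76, 8.40 and 9.02, or 1.54-fold lower in CXCR3- innate than in naive cells. Pik3cd, the lymphocyte PI3-kinase subunit, read 8.62, 8.49 and 9.01. Like Cd69 and Cd7, Vav1 and Pik3cd were lowest in CXCR3- innate cells. So was the NF-kB subunit gene Rela, at 9.37, 9.01 and 9.54, and so was Ptpn6, the phosphatase SHP-1 of inhibitory receptors, at 9.15, 8.82 and 9.11. That array was strictly the lowest for 30.9% of genes with a mean at or above the median of gene means. Mcl1, a survival gene, read 8.33 in both innate populations and 8.85 in naive cells, and Trat1, an adaptor that helps carry CTLA-4 to the surface, read 7.09, 7.40 and 7.51. Nfkbia, the NF-kB inhibitor, was 1.31-fold higher in CXCR3+ than in CXCR3- innate cells.

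**Figure D4:**
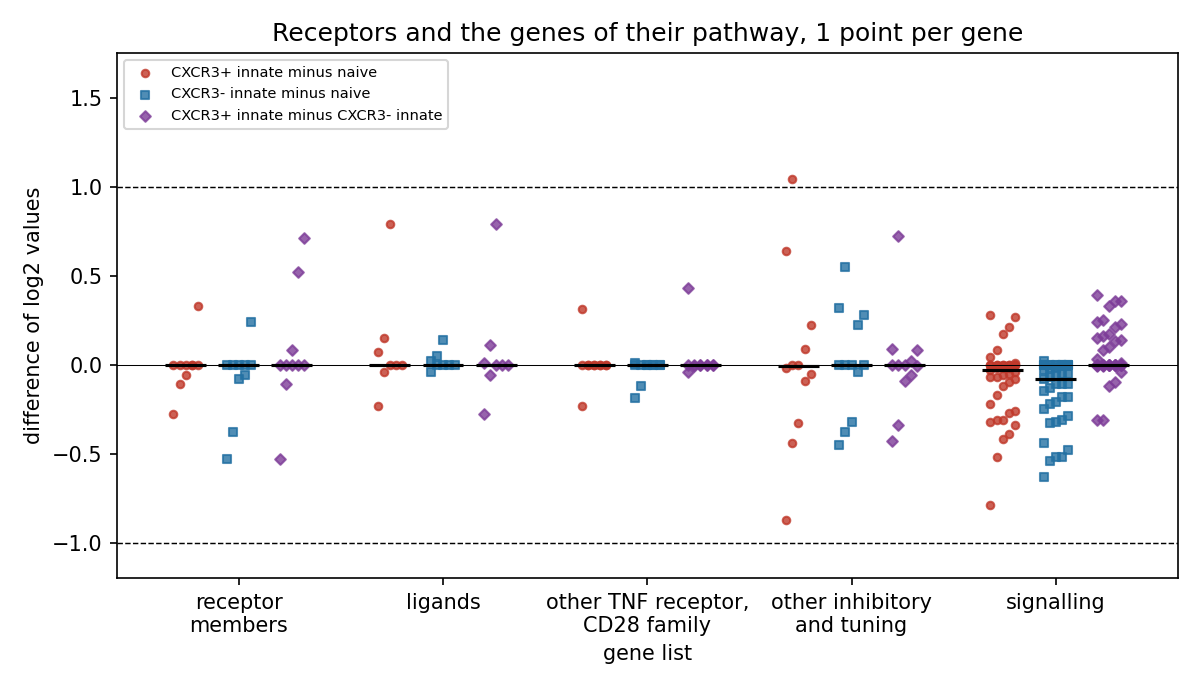
Difference of log2 values (vertical axis) for the 10 receptor genes and for 4 lists of pathway genes (horizontal axis), 1 point per gene, with short black lines at the medians and dashed lines at 2-fold. Lilrb4a at 1.04 in CXCR3+ innate minus naive is the only point past a dashed line, and the signalling genes of CXCR3- innate minus naive lie mostly at or below 0 on the deposited scale.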

How the data were processed

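The authors deposited log2 expression values for which the submitters' processing notes name RMA and Affymetrix Expression Console; versions are not given in the sources used here. RMA equalises the distributions of the arrays and combines each probe set by median polish. Quantile normalization of the deposited values still raised CXCR3- innate relative to naive cells in several receptor genes. Icos, Btla and Tnfrsf18, equal in these populations as deposited, moved to 0.16, 0.12 and 0.11, and Cd69 moved from -0.53 to -0.32. The table held 12417 probe sets on 3 arrays, each with a highest value of at least 7. Of these probe sets, 10576 had 1 gene symbol, 1108 several and 733 none. A gene without a value here may have been below 7 on every array or may lack a probe set with a single symbol. These cases cannot be told apart here. Probe sets of a gene were averaged, giving 10191 genes. The array's genome build is not given in the sources used here. Promoter sequences are from RefSeq. The number of arrays limits the precision.

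No test was possible with 1 array per group. Differences were read by the size rule. Simulated data with added differences above the threshold were used only to check its code. They do not show how the rule behaves on these arrays. Every receptor gene, the sort genes, listed genes past the size rule, up to 4 genes per list and comparison with the largest differences and the 5 genes nearest to the receptor gene with the widest range were to be named. Receptor genes and lists were chosen with earlier results of these data known. Alternatives were quantile normalization, cyclic loess, median centring, the brightest probe set, an offset of 16, and other filters and folds. Python 3.11.15, pandas 2.3.3, R 4.3.3 and limma 3.58.1 were used.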

Additional observations from a re-analysis of the deposited data

Results flagged for a closer look

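The innate populations differed from naive cells in opposite directions, by at least 0.1 each, in 9 of the named genes, which is what picked them out. In CXCR3+ innate and CXCR3- innate cells in that order, Ctla4 differed by -0.28 and 0.24, Cd7 by 0.33 and -0.38, Tnfrsf1b by 0.31 and -0.12, and Nfkbia by 0.28 and -0.11. The other 5 were named for their likeness to Cd7, so that they share its directions follows from the choice: Snord47 differed by 0.34 and -0.34, Rpl32 by 0.37 and -0.33, Cst7 by 0.38 and -0.34, Snord15a by 0.30 and -0.35, and Rpsa by 0.29 and -0.35. These differences share the naive array, and the difference between the populations was not tested because each had 1 array. Of all 10191 genes 1.44% met the same condition, and of the 10 receptor genes 2 did. After quantile normalization the CXCR3- innate difference was 0.04 for Tnfrsf1b and 0.02 for Nfkbia, so both lost their opposite directions, whereas Ctla4 and Cd7 kept theirs in all 5 other scalings and summaries tried.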

How the results depend on the processing

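No receptor gene passed the size rule in any comparison under quantile normalization, cyclic loess, median centring, the brightest probe set, the linear offset, no level filter, a filter at the 75th percentile or a 3-fold threshold. At 1.5-fold 1 gene, Cd7, passed between the innate populations. Over the 5 scalings and summaries, Cd7 between the innate populations ranged from 0.62 to 0.71, Cd69 from 0.37 to 0.52 and Ctla4 from -0.55 to -0.48. Of 150 recomputed differences of receptor genes, 9 moved by 0.1 or more, all after quantile normalization. Among them the difference from naive in CXCR3- innate cells was -0.32 for Cd69, -0.19 for Cd7 and 0.16 for Icos, which was equal as deposited. The median over the receptor genes stayed within 0.1 of its deposited value. No paired analysis was possible because each group has 1 array. Background was not measured, and values near 7 are limited by the table's filter.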
